A study of Mus musculus with 6 samples.

Results

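Nuclei of astrocytes that held Gfap RNA were picked out of 6 single-nucleus libraries of mouse lumbar spinal cord. Of 42628 nuclei with at least 500 unique molecular identifiers (UMIs, each counting 1 captured RNA molecule) and under 5% mitochondrial UMIs, 503 met the rule. The members were chosen by their own counts of Gfap and of marker genes. A member had at least 2 Gfap UMIs and a UMI of at least 2 of the 6 astrocyte genes Aqp4, Slc39a12, Slc7a10, Gja1, Slc4a4 and Fgfr3. It had at most 1 UMI of the neuronal genes Snap25 and Rbfox3 together, and at most 1 of the myelin genes Mog, Mag and Mobp together. The rule gave 233 nuclei in the PHD1-/- libraries (102, 35 and 96 in replicates 1 to 3) and 270 in the PHD1+/+ libraries (138, 108 and 24).

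Both groups of mice carried SOD1G93A, a mutant human SOD1 transgene whose carriers lose motor neurons and serve as a model of amyotrophic lateral sclerosis. The 3 PHD1-/- libraries came from mice without PHD1, an oxygen-dependent prolyl hydroxylase encoded by Egln2, and the 3 PHD1+/+ libraries from mice with it. All were C57BL/6 mice of 110 days, in 3 littermate pairs. Mice without the transgene were not analysed here, so the nuclei are called Gfap-expressing and not reactive.

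Astrocytes take up glutamate and potassium, wrap blood vessels with their endfeet and supply neurons with metabolites. Gfap encodes their intermediate filament protein. In the healthy cord it is high in fibrous astrocytes of white matter and low in protoplasmic astrocytes of grey matter, and reactive astrocytes raise it in injury and disease. Transcription of Gfap is driven in part by STAT3, downstream of cytokine receptors that share the gp130 chain.

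Gfap is a protein-coding gene on the minus strand at chr11:102887336-102900912 (GRCm38, GENCODE). The promoters of Gfap and of C3 and Gpc5, a gene higher and a gene lower in the chosen nuclei, are shown to compare them for the STAT letters. Each runs from 250 bases before to 50 bases after the RefSeq gene start (GRCm38.p6), which for Gfap lies inside the GENCODE gene. They lie at chr11:102897151-102897450 (minus strand), chr17:57228087-57228386 (minus strand) and chr14:115091965-115092264 (plus strand). Capitals mark a match to TTCNNNGAA, searched on both strands.
Gfap: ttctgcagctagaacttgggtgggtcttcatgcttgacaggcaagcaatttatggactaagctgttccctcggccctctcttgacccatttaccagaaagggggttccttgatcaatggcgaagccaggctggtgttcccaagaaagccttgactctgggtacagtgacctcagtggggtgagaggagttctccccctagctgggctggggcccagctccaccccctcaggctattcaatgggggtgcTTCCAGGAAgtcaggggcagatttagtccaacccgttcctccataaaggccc
C3: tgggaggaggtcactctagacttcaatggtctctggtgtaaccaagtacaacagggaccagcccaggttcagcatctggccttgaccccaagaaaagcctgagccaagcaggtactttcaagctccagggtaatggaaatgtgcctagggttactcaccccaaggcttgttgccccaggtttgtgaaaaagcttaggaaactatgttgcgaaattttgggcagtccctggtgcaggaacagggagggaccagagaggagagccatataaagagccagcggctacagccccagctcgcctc
Gpc5: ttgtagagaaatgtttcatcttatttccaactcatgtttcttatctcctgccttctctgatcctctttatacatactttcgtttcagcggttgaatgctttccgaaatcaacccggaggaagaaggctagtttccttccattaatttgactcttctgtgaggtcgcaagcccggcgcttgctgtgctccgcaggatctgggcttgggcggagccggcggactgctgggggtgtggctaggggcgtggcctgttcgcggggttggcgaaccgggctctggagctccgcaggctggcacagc
The Gfap window held 1 match and the C3 and Gpc5 windows 0. Of 32851 RefSeq windows of this length 8.3% held the letters, and a match describes the sequence only.

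The astrocyte genes of the rule were widely detected in members. Slc4a4, a bicarbonate transporter, had a UMI in 88.7% of members, Aqp4, the endfoot water channel, in 88.5%, and Gja1, connexin 43, in 74.2%. The zinc transporter Slc39a12 reached 60.8%, the growth factor receptor Fgfr3 46.3% and the amino acid transporter Slc7a10 33%. The rule used these genes, so the shares only describe the members.

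Gfap counts were low per nucleus, with a median of 3 UMIs and a maximum of 89. Of the members 162 held 2 Gfap UMIs, 110 held 3, 167 held 4 to 7, and 64 held 8 or more. Summed over members, Gfap stood at 2961, 1513 and 1464 CPM (UMIs scaled to the same total in each library) in PHD1-/- replicates 1 to 3, against 3869, 1578 and 1087 CPM in PHD1+/+ replicates 1 to 3. Replicate 1 was the highest of each genotype, and the genotypes overlapped. Just outside the rule stood 316 nuclei with 1 Gfap UMI that met every other line. A2m, described below, averaged 565 ± 337 CPM in nuclei with 2 Gfap UMIs and 312 ± 220 CPM in nuclei with 1 (SD, n = 6 libraries). Both values leave out nuclei with markers of another cell class, as defined below.

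Depth differed between libraries. The median member held 1271, 2939 and 2808 UMIs in PHD1-/- replicates 1 to 3, and 1292, 2719 and 2710 UMIs in PHD1+/+ replicates 1 to 3. PHD1+/+ replicate 1 stood apart, with a median mitochondrial share of 1.04% in members against 0.119% to 0.359% in the other 5 libraries. In nuclei with at least 3 UMIs of Snap25 and Rbfox3, which should lack Gfap, 3.71% held 2 or more Gfap UMIs in that library (median depth 2934 UMIs) and 0.108% to 1.05% in the others (3235 to 7224 UMIs). The part of such free RNA in the members was not tested. The first barcode began with AAACCTG in both replicate 1 libraries and with AAACCCA in the others. Both replicate 1 libraries shared 86 barcodes, and 3 members carried a barcode found in another library. How many barcodes unrelated libraries would share was not tested.

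Egln2, the targeted gene, was sparse. Members held 2, 0 and 2 Egln2 UMIs in PHD1-/- replicates 1 to 3, against 15, 9 and 1 UMIs in PHD1+/+ replicates 1 to 3. Summed, Egln2 stood at 7.33 CPM in PHD1-/- members (95% exact Poisson interval 2 to 18.8) and 42.1 CPM in PHD1+/+ members (27.2 to 62.1), intervals that cover counting error only. The sources used here do not say which part of Egln2 was deleted.

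The first question was whether Gfap-expressing nuclei were more or less frequent without PHD1. Members made up 1.55% (95% exact binomial interval 1.26 to 1.88), 0.473% (0.33 to 0.657) and 1.57% (1.27 to 1.92) of all nuclei in PHD1-/- replicates 1 to 3. They made up 1.51% (1.27 to 1.78), 1.35% (1.11 to 1.62) and 0.448% (0.287 to 0.665) in PHD1+/+ replicates 1 to 3. Each genotype had 1 low library, and the ranges overlapped. The mean was 1.2% ± 0.627 for PHD1-/-, against 1.1% ± 0.571 for PHD1+/+ (n = 3 each, SD). The difference of 0.0967 percentage points was smaller than the spread between libraries (exact permutation test, two-sided, p = 0.5, smallest possible 0.10), and within replicates 2 and 3 alone it was 0.125 points.

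Among nuclei that met every line of the rule but the Gfap one, members made up 37.4%, 26.3% and 18.8% in PHD1-/- replicates 1 to 3, against 44.1%, 33.3% and 12.2% in PHD1+/+ replicates 1 to 3. The highest and the lowest share were both PHD1+/+. The mean was 27.5% ± 9.34 for PHD1-/-, against 29.9% ± 16.2 for PHD1+/+ (n = 3 each, SD; exact permutation test, two-sided, p = 0.8). With 3 libraries per genotype the exact permutation p cannot go below 0.10, so neither of these 2 comparisons could have passed 0.05. A share of nuclei cannot tell fewer Gfap-expressing cells from less Gfap RNA per nucleus, and the direction of both turned under some settings given in the closing section.

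**Figure D1:**
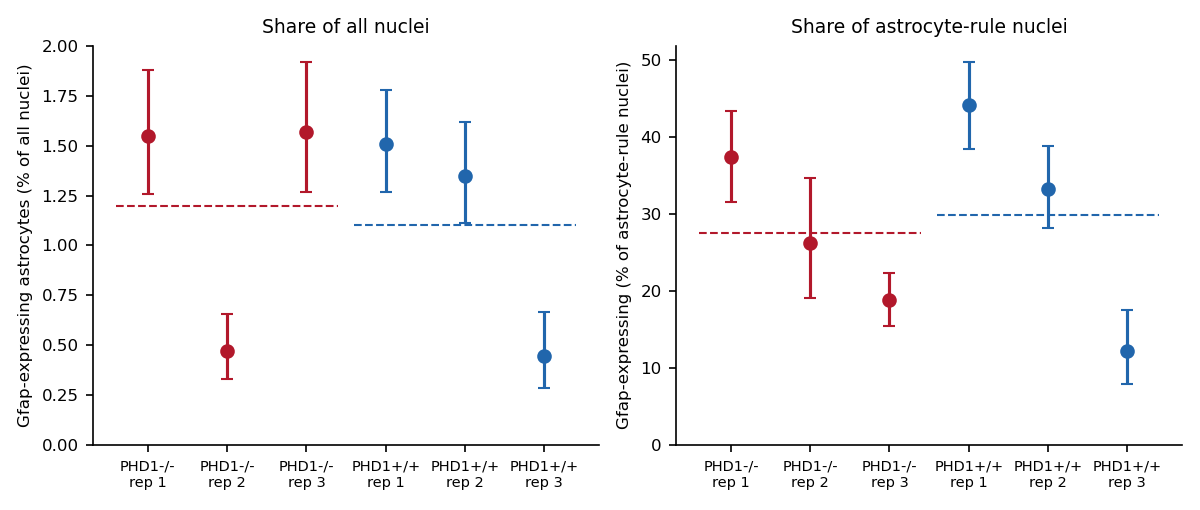
Gfap-expressing astrocyte nuclei in each library, in percent of all nuclei (left) and of nuclei that met every rule line but the Gfap one (right). Points are libraries with 95% exact binomial intervals and dashed lines are group means. The share of all nuclei lies between 0.473% and 1.57% in PHD1-/- and between 0.448% and 1.51% in PHD1+/+.

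The second question was what else set Gfap-expressing nuclei apart. Within each library they were compared with nuclei that met every other line but held 0 Gfap UMIs (513 in PHD1-/-, 419 in PHD1+/+). Of 4108 genes tested, without the 12 genes of the rule, 210 (5.11%) were higher and 209 (5.09%) lower in Gfap-expressing nuclei (edgeR quasi-likelihood test with the library as a block, Benjamini-Hochberg adjusted p under 0.05), 10.2% in all. The median depth was higher in members of all 6 libraries (1271 to 2939 UMIs, against 989 to 2311 UMIs in Gfap-0 nuclei). Thinned to 1000 UMIs per nucleus, 64 were higher and 44 lower of 1492.

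The Gfap-0 group held nuclei with markers of another cell type. Of 503 members 7 (1.39%) carried 3 or more of 12 ependymal markers, genes of the ciliated cells that line the central canal, against 210 of 932 Gfap-0 nuclei (22.5%). The 10 lower genes of smallest p with 1 direction in 6 of 6 libraries were Cfap299, Wdr49, Hydin, Ankfn1, Agbl4, Cfap46, 3300002A11Rik, Dnah12, Gm10714 and Dnah9, several of which build motile cilia. Hydin, needed for ciliary beating, stood at 0, 38.1 and 6.75 CPM in members of PHD1-/- replicates 1 to 3 and 0, 3.19 and 14.5 CPM in those of PHD1+/+, against 126, 158 and 221 CPM and 62.1, 198 and 396 CPM in Gfap-0 nuclei of the same libraries. The comparison was therefore repeated without nuclei that held 3 or more markers of 1 other class (58 of 503 members, 286 of 932 Gfap-0 nuclei), a choice made after seeing the data. It called 207 genes higher (7.25%) and 213 lower (7.46%) of 2854, 14.7% in all. With thinning as well, 6.3% of 1064 tested genes were called higher and 5.17% lower, 11.5% in all. Of the 210 genes first called higher 142 were called again (67.6%), and of the 209 lower genes 90 (43.1%). A gene entered this comparison at 74.1 CPM or more in at least 6 of the 12 sums, so a gene could enter through 1 group alone. Of the 207 higher genes 44 reached that level in fewer than 3 Gfap-0 sums, and of the 213 lower genes 44 in fewer than 3 member sums. Named list genes among these, and Aebp1, are said below to have entered through the other group. Outside the lists the group of entry is otherwise not given. Values below are from this second comparison unless stated, and fold changes are log2, Gfap-expressing over Gfap-0, with edgeR's adjusted p.

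The genes that rose with the smallest p included A2m, Ccdc148, C3, Aebp1, Adamtsl1, St6galnac3, Gm10635, Myoc and Prune2. Of these C3, Myoc and Aebp1 entered through the Gfap-expressing nuclei. Aebp1 averaged only 18.4 ± 13 CPM in Gfap-0 nuclei (SD, n = 6 libraries). A2m, the protease inhibitor alpha-2-macroglobulin, stood at 1024, 874 and 747 CPM in members of PHD1-/- replicates 1 to 3 and 540, 1418 and 911 CPM in members of PHD1+/+ replicates 1 to 3. Gfap-0 nuclei held 218, 54.2 and 129 CPM in PHD1-/- and 145, 302 and 57.6 CPM in PHD1+/+. Every member value lay above every Gfap-0 value (log2 fold change 2.65, SE 0.19, adjusted p = 1.05e-09). Myoc, myocilin, a secreted protein of fibrous astrocytes, averaged 257 ± 176 CPM in members and 19.3 ± 20.4 CPM in Gfap-0 nuclei (SD, n = 6 libraries; 3.53, adjusted p = 3.81e-08). Of a list of adhesion and matrix genes 5 of 15 tested rose and 2 fell (median 0.04, beside 0.03 over all tested genes). Cd44 and Tnc of that list entered through the Gfap-expressing nuclei. Of the 13 that reached the entry level in at least 3 sums of each group 3 rose and 2 fell. Over all genes 163 of 2580 rose and 169 fell. With all nuclei, the genes of smallest p included A2m, C3, Fxyd1, Dhrs1, Gm10635, Sema3a, Tnc, Myoc and Enox1.

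Complement proteins tag synapses and debris for removal. Of 18 complement genes 4 were tested, C3, C4b, Clu and Cd46. C3 and C4b entered through the Gfap-expressing nuclei, so their count says nothing of the list. C3, the central component, stood at 118, 210 and 175 CPM in members of PHD1-/- replicates 1 to 3 and 128, 509 and 99.3 CPM in members of PHD1+/+ replicates 1 to 3. Gfap-0 nuclei held 19, 15.5 and 7.17 CPM in PHD1-/- and 9.64, 62.3 and 0 CPM in PHD1+/+. The groups did not overlap (log2 fold change 3.58, SE 0.29, adjusted p = 4.79e-09). C4b, of the classical pathway, averaged 232 ± 38.8 CPM in members and 71.6 ± 39.4 CPM in Gfap-0 nuclei (1.65, adjusted p = 2.94e-06). Clu, clusterin, an inhibitor of complement lysis, averaged 1145 ± 330 CPM in members and 595 ± 161 CPM in Gfap-0 nuclei (0.94, adjusted p = 1.64e-05). Cd46, a complement regulator, had a log2 fold change of 0.10 (adjusted p = 0.897).

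**Figure D2:**
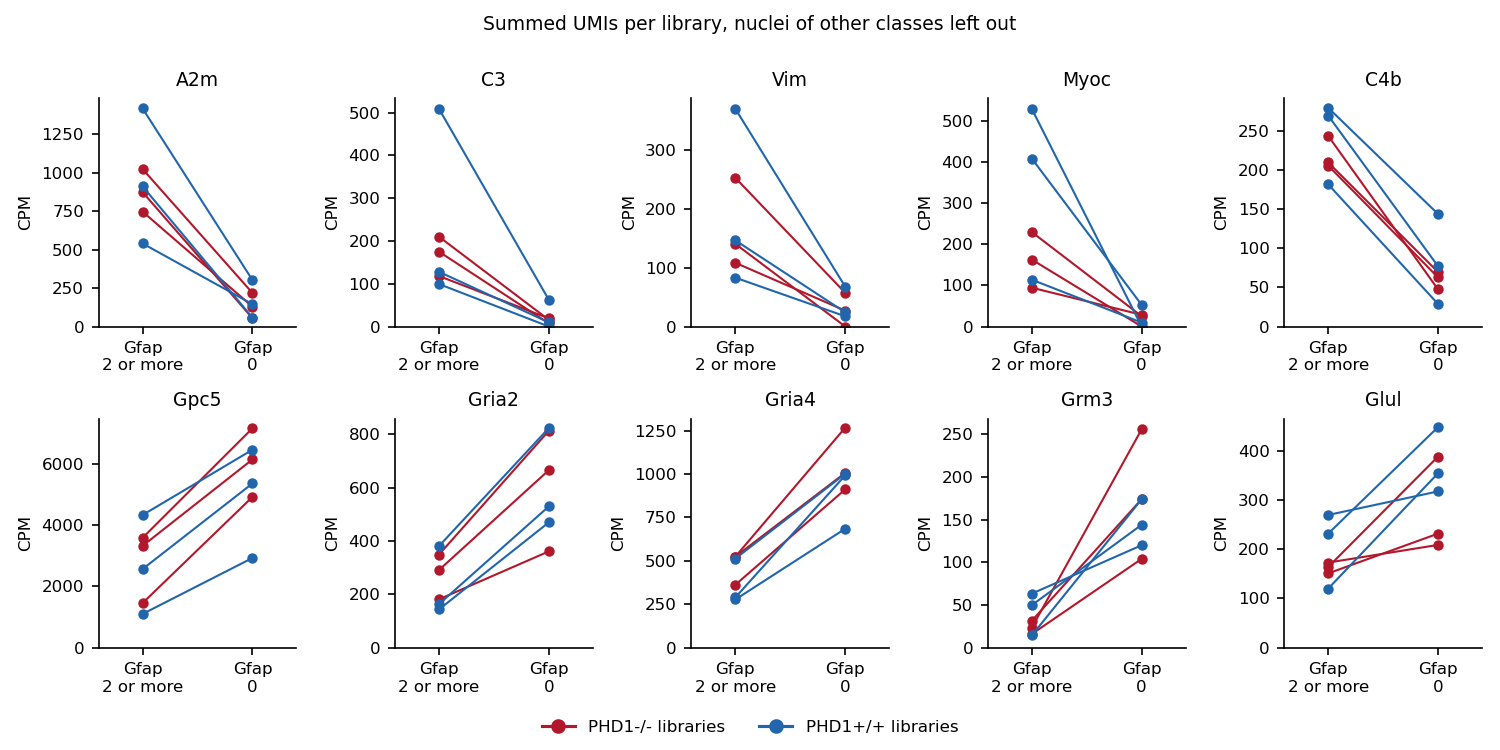
CPM of 10 genes in the Gfap-expressing (left) and Gfap-0 nuclei (right) of each library, nuclei of other classes left out. Lines join both groups of 1 library, red for PHD1-/- and blue for PHD1+/+. Members are above Gfap-0 nuclei in all 6 libraries for A2m, C3, Vim, Myoc and C4b, and below in all 6 for Gpc5, Gria2, Gria4, Grm3 and Glul.

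Of 12 pan-reactive genes, raised in reactive astrocytes of several kinds, Vim and Cd44 had enough counts. Both entered through the Gfap-expressing nuclei, so they give values and no count for the list. Vim, vimentin, a filament protein that assembles with Gfap, stood at 252, 140 and 108 CPM in members of PHD1-/- replicates 1 to 3 and 369, 146 and 82.8 CPM in members of PHD1+/+ replicates 1 to 3. Gfap-0 nuclei held 57, 0 and 26.9 CPM in PHD1-/- and 67.5, 24 and 17.3 CPM in PHD1+/+, below every member value (2.45, adjusted p = 3.36e-07). Cd44, a hyaluronan receptor, averaged 271 ± 109 CPM in members and 59.4 ± 47.7 CPM in Gfap-0 nuclei (2.19, adjusted p = 4.16e-07). With all nuclei Hspb1, a small heat shock protein, rose too (2.60, adjusted p = 7.24e-07), and Cp did not pass (-0.08, adjusted p = 0.934). The other 8 were too sparse to test. Serpina3n, a protease inhibitor, had 3, 13 and 13 UMIs in members of PHD1-/- replicates 1 to 3 and 36, 35 and 4 UMIs in those of PHD1+/+ replicates 1 to 3. Lcn2 had 1 UMI in all members and Steap4 0.

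The disease-associated astrocyte list, described in a mouse model of Alzheimer disease, rose in 11 of 15 tested and fell in 0 (median 0.74). One of the 11, C4b, entered through the Gfap-expressing nuclei. Of the 14 that reached the entry level in at least 3 sums of each group 10 rose, beside 163 of 2580 over all genes. The list rose in 10 of 15 with all nuclei, and in 6 of 14 without other classes and thinned to 1000 UMIs. Apoe, the lipid carrier, averaged 5883 ± 1653 CPM in members and 4512 ± 275 CPM in Gfap-0 nuclei (0.37, adjusted p = 0.033), and was not called once nuclei were thinned (adjusted p = 0.129). Fxyd1, a regulator of the sodium pump, rose by 1.68 (adjusted p = 5.52e-08). Id3 and Id4, targets of BMP signalling, rose by 1.38 (adjusted p = 2.79e-05) and 0.93 (adjusted p = 0.00139). The lysosomal list rose in 5 of 6 tested, beside 163 of 2580 over all genes. Among them were the tetraspanin Cd63 (0.69, adjusted p = 0.000681) and the protease Ctsb (0.75, adjusted p = 0.00225). Of these genes Ctsb, Ctsd and Ctsl also count in the disease-associated list, so the lists are not independent. With all nuclei 4 of 11 lysosomal genes rose, and after thinning 2 of 6.

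Metallothioneins and zinc transporters, which handle zinc and copper, rose in 4 of 4 tested, in 3 of 4 with all nuclei and in 3 of 3 after thinning. Over all tested genes 7.25%, 5.11% and 6.3% were higher in the same comparisons. Mt2 had a log2 fold change of 1.32 (adjusted p = 4.15e-05) and the zinc importer Slc39a14 of 1.19 (adjusted p = 5.59e-05). Mt1 stood at 3096, 839 and 1201 CPM in members of PHD1-/- replicates 1 to 3 and 7764, 885 and 1325 CPM in those of PHD1+/+, against 636, 465 and 818 CPM and 1832, 571 and 1031 CPM in Gfap-0 nuclei of the same libraries (1.18, adjusted p = 0.00012). Among members replicate 1 was the highest of each genotype, and each library had more in its members than in its Gfap-0 nuclei.

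Of the fibrous astrocyte list 7 genes reached the entry level in at least 3 sums of each group, of which 3 rose and 0 fell. The other 5 tested genes entered through the Gfap-expressing nuclei, Myoc, Vim, Cd44, Tnc and S100a6, and are given as values. Beside Id3 the called genes of the list included the matrix protein Tnc (2.88, adjusted p = 3.23e-07), the calcium-binding S100a6 (2.27, adjusted p = 9.92e-08) and the glutamine transporter Slc38a1 (1.13, adjusted p = 3.24e-06). Of the protoplasmic list 16 of 23 fell and 1, Nkain2, rose (median -0.64). Grm3 entered through the Gfap-0 nuclei. Of the 22 that reached the entry level in at least 3 sums of each group 15 fell, beside 169 of 2580 over all genes. With all nuclei 10 of 23 protoplasmic genes fell, and after thinning 7 of 21. Lists share genes. Among others, Vim and Cd44 are also pan-reactive and Id3 is also disease-associated. Grm3 and Glul count in both the protoplasmic and the glutamate list.

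Gpc5, a heparan sulphate proteoglycan of the cell surface, had the smallest p among the lower genes. It stood at 1450, 3577 and 3316 CPM in members of PHD1-/- replicates 1 to 3 and 1094, 2559 and 4322 CPM in members of PHD1+/+ replicates 1 to 3. Gfap-0 nuclei held 4911, 7150 and 6134 CPM in PHD1-/- and 2921, 5351 and 6450 CPM in PHD1+/+. Libraries overlapped, but within each the members had less (log2 fold change -1.07, SE 0.11, adjusted p = 9.92e-08). The next lower genes by p included Lsamp, Gria4, Gria2, Nrg3, Pitpnc1, Pcdh15, Gm12239 and Negr1. Lsamp, an adhesion protein, averaged 6872 ± 2411 CPM in members and 11580 ± 3318 CPM in Gfap-0 nuclei (-0.74, adjusted p = 9.92e-08).

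Of 16 tested genes of glutamate and potassium handling 9 fell and 1, Slc38a1, rose. Of the 14 that reached the entry level in at least 3 sums of each group 8 fell, beside 169 of 2580 over all genes. With all nuclei 5 of 16 fell, and after thinning 2 of 11. The AMPA receptor subunits Gria2 and Gria4, not in that list, had log2 fold changes of -1.30 (adjusted p = 3e-07) and -1.26 (adjusted p = 1.88e-07). Grm3, a metabotropic glutamate receptor that entered through the Gfap-0 nuclei, averaged 32.9 ± 19.7 CPM in members and 162 ± 53.8 CPM in Gfap-0 nuclei (-2.09, adjusted p = 9.05e-06). Glul, glutamine synthetase, averaged 185 ± 55.4 CPM in members and 325 ± 92.2 CPM in Gfap-0 nuclei (-0.88, adjusted p = 0.00159). The GABA transporter Slc6a11 fell by 0.92 on the log2 scale (adjusted p = 8.39e-05). Slc1a2, the main glutamate transporter, was not called (-0.21, adjusted p = 0.291). Neuronal markers fell in 4 of 8 tested. Of the 7 that reached the entry level in at least 3 sums of each group 3 fell, beside 169 of 2580 over all genes. The part of neuronal RNA in these changes was not tested.

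Of the gp130 and STAT3 signalling list 2 of 5 tested genes rose and 1 fell, beside 7.25% and 7.46% of all tested genes. Stat3 averaged 229 ± 67.3 CPM in members and 128 ± 38.2 CPM in Gfap-0 nuclei (0.93, adjusted p = 0.00178), higher in members of 5 of 6 libraries. Il6st, the gp130 chain, rose by 1.28 (adjusted p = 5.67e-05), and Cntfr, the receptor of ciliary neurotrophic factor, fell by 1.07 on the log2 scale (adjusted p = 0.000316). Of the TGF-beta, BMP and Notch list 4 of 12 tested genes rose and 0 fell, beside 7.25% and 7.46% of all tested genes. With all nuclei 6 of 17 rose and 1 fell. Id3 and Id4, also in the disease-associated list, and Sox9 were among the 4. Sox9, a transcription factor of astrocytes, rose by 1.11 (adjusted p = 0.00117). Of 17 tested genes of hypoxia and glycolysis 2 rose, the lactate transporter Slc16a1 (1.22, adjusted p = 0.000332) and hexokinase Hk1 (0.67, adjusted p = 0.0398). Slc16a1 entered through the Gfap-expressing nuclei. Of the 15 that reached the entry level in at least 3 sums of each group 1 rose, beside 163 of 2580 over all genes. Of the oxygen-sensing list 0 of 4 tested were called, where 14.7% of all genes were, with Hif1a at -0.24 (adjusted p = 0.402).

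**Figure D3:**
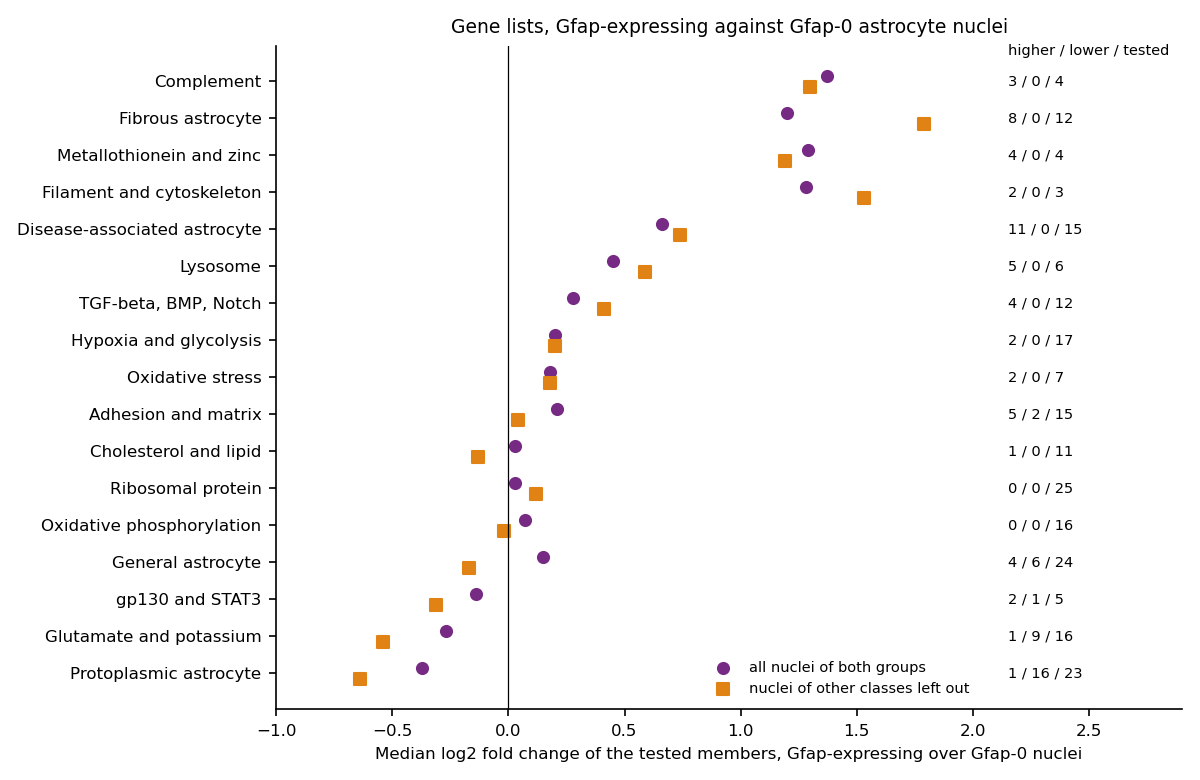
Median log2 fold change of the tested members of 17 gene lists, Gfap-expressing over Gfap-0 nuclei, with all nuclei (circles) and without nuclei of other classes (squares). Numbers at the right count members called higher, called lower and tested without other classes. The complement, fibrous, filament, disease-associated, hypoxia and adhesion medians and counts rest partly on genes that entered through the Gfap-expressing nuclei. Those of the protoplasmic and glutamate lists, among others, rest partly on genes that entered through the Gfap-0 nuclei. The disease-associated list lies at 0.74 and the protoplasmic list at -0.64.

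Levels were also set beside the amount of Gfap RNA. Nuclei were thinned to 1000 UMIs, other classes were left out, and 3 libraries with at least 9 nuclei in each Gfap group were used. They were PHD1-/- replicates 1 and 3 and PHD1+/+ replicate 1, the library that stood apart above. PHD1-/- replicate 3 had 9 nuclei with 4 or more Gfap UMIs. Gpc5 averaged 4580 ± 1137 CPM at 0 Gfap UMIs, 2915 ± 906 CPM at 1, 2122 ± 662 CPM at 2 or 3, and 1400 ± 525 CPM at 4 or more (SD, n = 3 libraries). A2m averaged 137 ± 43.8, 453 ± 209, 663 ± 281 and 1162 ± 388 CPM in the same groups. Clu averaged 595 ± 21.3, 693 ± 114, 1139 ± 388 and 2090 ± 319 CPM. In the 6 libraries without thinning Clu stood at 595 ± 161, 736 ± 150, 920 ± 270 and 781 ± 316 CPM at 0, 1, 2 and 3 Gfap UMIs. That was not a steady rise, whereas the mean of A2m rose and that of Gpc5 fell at each step there. C3 was too sparse after thinning for such an order, at 28.7 ± 12.4, 131 ± 61.5, 112 ± 5.55 and 40.1 ± 38.6 CPM. Without thinning and over 6 libraries C3 averaged 18.9 ± 22.3 CPM at 0 Gfap UMIs, 63.4 ± 41.2 CPM at 1, 81 ± 55.8 CPM at 2 and 223 ± 224 CPM at 3, from 22, 30, 29 and 58 C3 UMIs. Gfap chose the groups, so these values are descriptions with no test.

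The third question was whether PHD1 loss changed expression within Gfap-expressing nuclei. Of 4224 tested genes 0 were called (0%, edgeR quasi-likelihood test, Benjamini-Hochberg adjustment), and 44 had an unadjusted p under 0.05. DESeq2 called 0, and 13 had such a p. On data simulated from these libraries the test recovered 0% of 2-fold and 10.4% of 4-fold changes, so large changes could be missed. The interaction, which tests whether the difference between Gfap-expressing and Gfap-0 nuclei depends on genotype, called 0 of 5555 genes (0%), and 146 had an unadjusted p under 0.05. By DESeq2 these counts were 0 and 30.

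In 83 of the 4224 genes (1.96%) all PHD1-/- values were under all PHD1+/+ values, and in 114 (2.7%) they were above. The 5 lower genes of smallest p were Igfbp2, Focad, Bcap31, 1700025G04Rik and Pak3. Igfbp2, a secreted protein that binds insulin-like growth factors, had 41.7, 19 and 23.6 CPM in PHD1-/- replicates 1 to 3, against 85.2, 98.8 and 420 CPM in PHD1+/+ replicates 1 to 3, the last from 29 UMIs (log2 fold change -2.67, SE 0.69, edgeR adjusted p = 1). In the interaction it had a log2 difference of -2.61 (edgeR adjusted p = 0.264). The 5 higher genes were Mob3b, 4930545L23Rik, Ccdc173, Clock and Atpaf1. Clock, a transcription factor of the circadian clock, had 139, 105 and 105 CPM in PHD1-/- replicates 1 to 3, against 33.1, 76.5 and 43.5 CPM in PHD1+/+ replicates 1 to 3 (log2 fold change 1.07, SE 0.39, edgeR adjusted p = 1).

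C3 and Vim did not separate by genotype in members. C3 had 111, 247 and 169 CPM in PHD1-/- replicates 1 to 3, against 118, 494 and 86.9 CPM in PHD1+/+ replicates 1 to 3. Vim had 271, 133 and 105 CPM in PHD1-/- replicates 1 to 3, against 445, 153 and 86.9 CPM in PHD1+/+ replicates 1 to 3. In both genes the PHD1-/- values lay inside the PHD1+/+ range.

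The medians of the ribosomal, mitochondrial and disease-associated lists turned when PHD1+/+ replicate 1 alone was left out, and kept their sign when both replicate 1 libraries were. With 6 libraries the fold change was negative in 29 of 29 ribosomal protein genes (median -0.78), 8 of 8 mitochondrially encoded genes (-1.07) and 16 of 17 disease-associated genes (-0.48), beside 54.9% of all genes. Without that library it was negative in 0 of 28, 3 of 8 and 6 of 17, with medians of 0.79, 0.20 and 0.12. With both replicate 1 libraries left out, these counts were 19 of 26 (median -0.29), 8 of 8 (median -0.66) and 14 of 18 (median -0.22). With the replicate block they were 29 of 29 (median -0.68), 8 of 8 (median -0.86) and 15 of 17 (median -0.42). The lysosomal list was negative in 12 of 12 and, without that library, in 7 of 9 (medians -0.58 and -0.24). Ctsd, cathepsin D, had 215, 247 and 179 CPM in PHD1-/- replicates 1 to 3, against 350, 332 and 478 CPM in PHD1+/+ replicates 1 to 3, with no overlap and no call (edgeR adjusted p = 1). Endothelial markers summed to 744, 19 and 16.9 CPM in PHD1-/- members, against 540, 35.1 and 1029 CPM in PHD1+/+ members, and neuronal markers to 3767, 951 and 1026 CPM in PHD1-/- members, against 5214, 1355 and 1101 CPM in PHD1+/+ members. Their part in these differences was not tested.

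**Figure D4:**
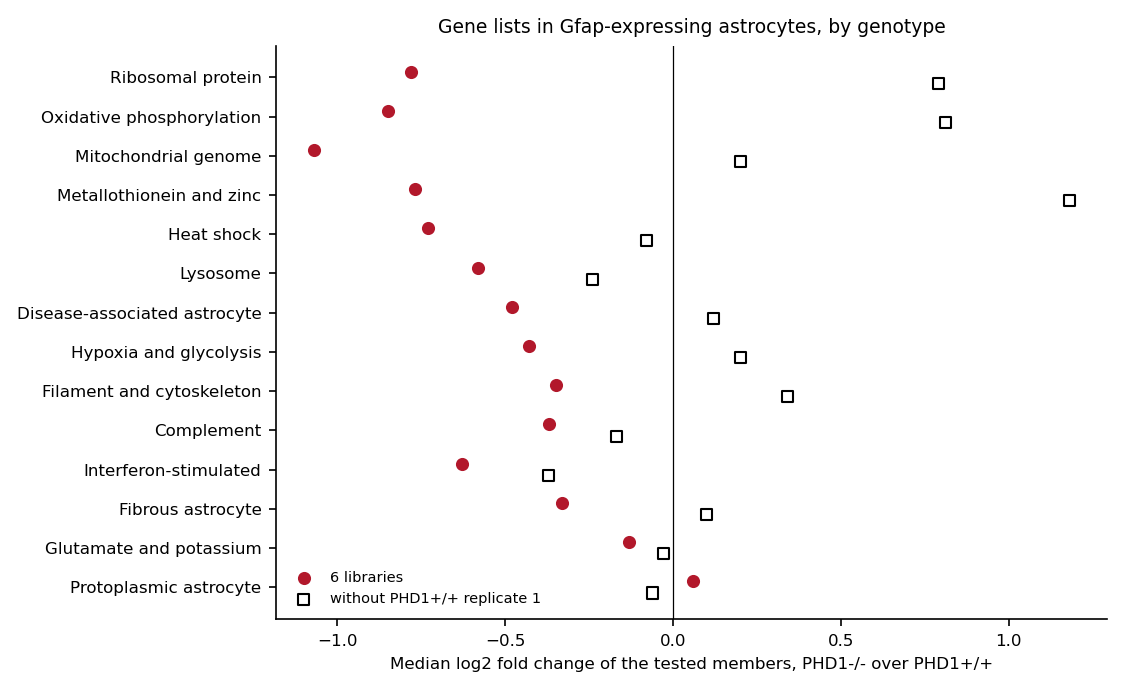
Median log2 fold change of the tested members of 14 gene lists in Gfap-expressing nuclei, PHD1-/- over PHD1+/+, with 6 libraries (filled circles) and without PHD1+/+ replicate 1 (open squares). Ribosomal protein genes lie at -0.78 with 6 libraries and at 0.79 without that one.

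The study's title names the interferon response of astrocytes. Interferons act through receptors on the cell surface to switch on a shared set of antiviral genes. Of 76 such genes in the files 9 had 0 UMIs in members, 45 had more than 10, and 3 passed the filter on low counts, all with negative fold changes (median -0.63, PHD1-/- over PHD1+/+). Herc6 had 48.6, 66.6 and 101 CPM in PHD1-/- replicates 1 to 3, against 37.9, 54.2 and 174 CPM in PHD1+/+ replicates 1 to 3. Rnf213, a ubiquitin ligase, had 62.5, 19 and 77.6 CPM in PHD1-/- replicates 1 to 3, against 47.4, 47.8 and 217 CPM in PHD1+/+ replicates 1 to 3. Ifitm3, an antiviral membrane protein, had 195, 19 and 16.9 CPM in PHD1-/- replicates 1 to 3, against 317, 51 and 86.9 CPM in PHD1+/+ replicates 1 to 3. All 3 overlapped between genotypes. Without PHD1+/+ replicate 3, 8 genes passed the filter, 3 of them negative, and the median was 0.17.

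The summed signal was also read nucleus by nucleus. Summed over the list, members stood at 1369, 723 and 1272 CPM in PHD1-/- replicates 1 to 3, against 1430, 730 and 4071 CPM in PHD1+/+ replicates 1 to 3. In PHD1+/+ replicate 3, 84.7% of the UMIs came from 3 of 24 nuclei, and without them the sum was 746 CPM. In the other 5 libraries the top 3 nuclei held 10% to 32.4% of the UMIs. Its top nucleus detected 40 of the genes with 174 UMIs among 5215, and its next detected 28. The top 3 nuclei of PHD1-/- replicate 3 detected 26, 24 and 16. These 5 nuclei had 0 endothelial and at most 2 microglial marker genes (the third of PHD1-/- replicate 3 had 2 ependymal ones). The top nucleus of PHD1-/- replicate 1, with 13 genes, had 9 of 10 endothelial markers. That of PHD1+/+ replicate 1, with 16 genes among 10935 UMIs, had 5 microglial, 1 endothelial and 1 ependymal marker genes.

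**Figure D5:**
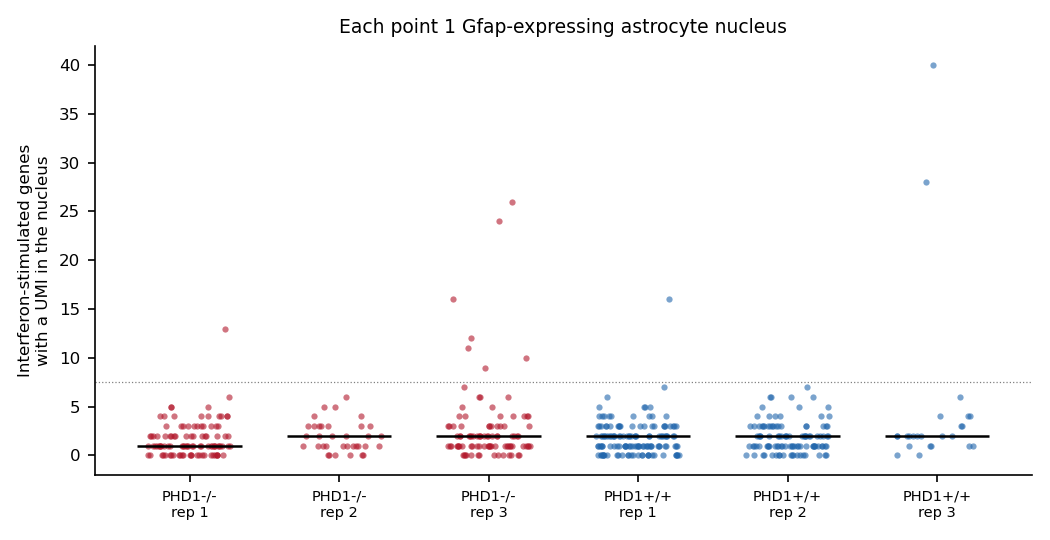
Interferon-stimulated genes with a UMI in each of the 503 Gfap-expressing nuclei, by library, red for PHD1-/- and blue for PHD1+/+, with a bar at each median. Above the dotted line, at 8 or more genes, PHD1-/- replicates 1 to 3 have 1, 0 and 7 nuclei, against 1, 0 and 2 nuclei in PHD1+/+ replicates 1 to 3.

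Nuclei with 5 or more of the genes numbered 5 of 102, 3 of 35 and 13 of 96 in PHD1-/- replicates 1 to 3, against 7 of 138, 8 of 108 and 3 of 24 in PHD1+/+ replicates 1 to 3. The mean share was 9.01% ± 4.34 for PHD1-/-, against 8.33% ± 3.8 for PHD1+/+ (n = 3 each, SD; exact permutation test, two-sided, p = 0.8). Thinned to 1000 UMIs, 31.6%, 14.3% and 26.1% of members had 2 or more of the genes in PHD1-/- replicates 1 to 3, against 39.8%, 16.8% and 26.1% in PHD1+/+ replicates 1 to 3 (exact permutation test, two-sided, p = 0.8). Thinning left out 26, 0 and 4 shallower nuclei in PHD1-/- and 40, 1 and 1 in PHD1+/+, and without it the shares were 42.2%, 51.4% and 54.2% in PHD1-/- and 51.4%, 51.9% and 70.8% in PHD1+/+. Gfap-0 nuclei, other classes included, gave 24.1%, 15.2% and 19.2% at the same depth in PHD1-/- replicates 1 to 3. In PHD1+/+ replicates 1 to 3 they gave 32.9%, 20.6% and 12.9%, so the signal was not particular to members. Before thinning, 1 Gfap-0 nucleus of PHD1-/- replicate 1 held 29 of the genes. Oligodendrocyte nuclei at the same depth gave 13%, 7.29% and 6.69% in PHD1-/- replicates 1 to 3 and 19.6%, 7.29% and 6.94% in PHD1+/+ replicates 1 to 3. Replicate 1 was highest in each genotype for each kind of nuclei.

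Cxcl10, a chemokine that attracts T cells, had 0, 0 and 6 UMIs in members of PHD1-/- replicates 1 to 3, against 0, 0 and 66 UMIs in members of PHD1+/+ replicates 1 to 3. Of the 66 UMIs 62 came from 1 nucleus. With no filter on low counts it was 1 of 2 genes called lower in PHD1-/- members. The other, 4833423E24Rik, had 0, 0 and 1 UMIs in PHD1-/- members, against 4, 44 and 3 UMIs in PHD1+/+ members. The Cxcl10 promoter at chr5:92348840-92349139 (minus strand, RefSeq, GRCm38.p6) is shown for its interferon-response letters. Capitals mark a match to GAAANNGAAA, searched on both strands and found in 3.44% of promoter windows.
Cxcl10: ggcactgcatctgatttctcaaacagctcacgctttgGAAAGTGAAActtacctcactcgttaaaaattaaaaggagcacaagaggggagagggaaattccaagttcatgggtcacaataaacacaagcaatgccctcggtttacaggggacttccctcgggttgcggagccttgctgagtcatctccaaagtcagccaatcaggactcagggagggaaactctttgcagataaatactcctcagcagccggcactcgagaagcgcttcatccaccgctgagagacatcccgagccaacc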

How the data were processed

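RNA of single nuclei from lumbar spinal cord was counted in 6 libraries made with a 10x 3' kit. The deposited values are raw UMI counts of 32285 genes, with barcodes of at least 500 UMIs. Per the file headers Cell Ranger 5.0.1 wrote them, while the submitters' processing notes list version 5.0.2, Scanpy 1.8.1 and mm10.

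Counts were summed per library over the chosen nuclei (69028 to 313664 UMIs) and over Gfap-0 nuclei, and tested with edgeR 4.0.16 in R 4.3.3 (TMM, filterByExpr, quasi-likelihood test, Benjamini-Hochberg adjustment over all tested genes, threshold 0.05). DESeq2 1.42.0 was an alternative. CPM scale each sum to the same total. Shares were compared by exact permutation over libraries, with exact binomial (Clopper-Pearson, 95%) intervals. Fits were tested on simulated data, where 94.8% of 2-fold changes between Gfap-expressing and Gfap-0 nuclei were recovered over 4116 genes.

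The nuclei, gene lists and comparisons were chosen with earlier results of these data known. Named genes are the 5 (genotype) or 10 (Gfap status) of smallest p in each direction among those with 1 direction in all libraries, and called members of the lists. A few genes that this rule gives are not reported here. Other genes were named after their values were seen. Scrublet (Scanpy 1.11.5) marked 0 nuclei in both replicate 1 libraries, under the 0.5% taken as a working call, and 2 members elsewhere. Doublets were kept, and leaving them out was an alternative. The labels mention littermates but do not tie the replicate number to a pair. The replicate block took the number as the pair. Same-numbered libraries of both genotypes deviated together (correlations 0.676, 0.367 and 0.331 over 4224 genes), which cannot settle the pairing. Both replicate 1 libraries were shallower and differed from the others in their first barcode. PHD1-/- replicate 3 was closer still to PHD1+/+ replicate 2 (0.474), and PHD1-/- replicate 2 had 0.176 with PHD1+/+ replicate 3.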

Additional observations from a re-analysis of the deposited data

How the results depend on the processing

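Gfap-expressing against Gfap-0 nuclei called 419 genes. The count was 246 with DESeq2, 839 with no filter on low counts, 108 thinned to 1000 UMIs, 136 with no library block, and 122 thinned without other classes. Leaving out 1 library gave 236 to 497 calls, the lowest being 236 when PHD1-/- replicate 3 was dropped and 243 when PHD1+/+ replicate 2 was, and 301 to 475 without other classes. The other alternatives gave 290 to 528. Thinned fits tested fewer genes. Agbl4 turned to 0.05 on the log2 scale without other classes, and Fxyd1 was not called with no library block (1.94, edgeR adjusted p = 0.14). The genotype comparison called 0 genes in each alternative except 2 with no filter, and the interaction 0 in each.

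The share of all nuclei differed by 0.0967 points, by -0.00291 with a Gfap minimum of 3, by -0.167 thinned, and by -0.23 to 0.459 leaving out 1 library. The share of astrocyte nuclei differed by -2.38 points, by 0.68 with a Gfap minimum of 1, and by -11.2 to 4.73 leaving out 1 library. The interferon median of -0.63 was -1.42 with a Gfap minimum of 3, where 1 gene was tested, and -0.97 to 0.17 leaving out 1 library. It had no value, with 0 genes tested, after thinning, without nuclei holding 2 UMIs of other types, or without other classes. The cause was not tested. With the replicate block the shares gave exact sign-flip p = 0.75 and 0.5 (smallest possible 0.25) at the same differences of 0.0967 and -2.38 points, the genotype fit made 0 calls (unadjusted p under 0.05 in 316), and the interferon median was -0.90. The block changed no call. PHD1+/+ replicate 3 rests on 24 members and 69028 UMIs.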
